A study of Homo sapiens with 16 samples.

Results

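The genes described here lie together on the distal long arm of human chromosome 13, from about 90 Mb to the end of the chromosome, in T24 cells, a line derived from a human bladder cancer. They were chosen from the deposited expression values themselves, as genes of that stretch whose RNA was raised at P3 and P7 but not at P15, so their levels against P0 are given as a description, without a test. Of 51 listed members, 50 were found in the table by name and CARKD by its current name NAXD, among 39007 genes in all. A mean above 1 CPM (read counts scaled to a common library total) over the 16 libraries was reached by 47 members and by 13227 genes of the whole table, and these were the genes analysed.

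Each of the 4 groups held 4 libraries. P0 was the parental T24 line. P3, P7 and P15 were the early, intermediate and late phases of GRC1, a line derived from T24 by repeated rounds of the nucleoside drug gemcitabine. Of several such lines, GRC1 alone was sequenced, and no source states that the 4 libraries of a phase came from separate cultures, so the p-values measure the spread between these libraries only. In bulk RNA, a change in every cell and a change in the share of cells that carry it cannot be told apart.

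The label of a bladder epithelial line was checked against defining markers. At P0 the mean level of KRT7 was 957 CPM, that of KRT18 471 CPM, that of GATA3 36.2 CPM and that of FOXA1 28.5 CPM, while UPK1B, a plaque protein of mature urothelium, was at 0.014 CPM. By P15, GATA3 was at 1.43 CPM, FOXA1 at 3.26 CPM and KRT7 at 11.498 CPM, whereas KRT18 was at 633 CPM. The other listed epithelial markers, EPCAM and UPK2, were low, at 5.41 and 0.84 CPM at P0 and 0.811 and 0.593 CPM at P15. Of the leukocyte genes, PTPRC, CD3E and CD79A did not exceed 0.092 CPM in any phase, but CD14 was at 6.81 CPM at P0, 1.95 CPM at P3, 5.83 CPM at P7 and 0.058 CPM at P15. Of the fibroblast genes, DCN and LUM did not exceed 0.121 CPM, but COL1A1 was at 5.01 CPM at P0, 1.76 CPM at P3, 5.15 CPM at P7 and 23.965 CPM at P15. The endothelial gene CDH5 was at 5.69 CPM at P0 and at 0.219 CPM or less in the later phases, and PECAM1 and VWF stayed below 1 CPM. The part of these changes in the members' levels was not tested.

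Neighbouring genes of a chromosome arm need not share a pathway. What they share is the DNA molecule: when a segment of a chromosome is gained or lost in a tumour cell, all genes on it are gained or lost together. The members serve unrelated tasks, among them protein folding in the endoplasmic reticulum, DNA repair, cell division, nuclear transport, control of small GTPases and mitochondrial metabolism. The files hold RNA levels and no measurement of DNA.

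A pair of neighbouring members shows how far single members can depart from their surroundings. DNAJC3, an endoplasmic reticulum co-chaperone that also restrains the kinases acting on the translation factor eIF2, occupies chromosome 13 from 95677139 to 95794988 on the plus strand (GRCh38). DZIP1, which is needed for primary cilia and Hedgehog signalling, lies before it from 95578202 to 95644706 on the minus strand. Between them lies DNAJC3-AS1 (95648711 to 95676973, minus strand), an analysed gene that is not a member. Its log2 fold change against P0 was -0.14 at P3 and 0.495 at P7. DNAJC3 was the member with the largest rise at P7 and DZIP1 the member with the largest fall. Their promoters are shown for that reason, as the 250 bases before each start in RefSeq (GRCh38.p14), read 5′ to 3′ on the gene's own strand, with GC boxes (GGGCGG) and CCAAT boxes (CCAAT) of either strand in capitals. The window of DNAJC3 is chr13:95676889-95677138 and that of DZIP1 is chr13:95644707-95644956. The DNAJC3 window also covers the start of DNAJC3-AS1.

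DNAJC3: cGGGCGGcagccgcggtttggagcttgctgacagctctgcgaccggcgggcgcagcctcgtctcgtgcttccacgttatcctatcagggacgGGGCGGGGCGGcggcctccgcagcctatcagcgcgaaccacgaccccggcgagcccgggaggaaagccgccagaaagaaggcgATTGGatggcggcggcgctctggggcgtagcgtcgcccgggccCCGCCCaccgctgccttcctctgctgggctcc
DZIP1: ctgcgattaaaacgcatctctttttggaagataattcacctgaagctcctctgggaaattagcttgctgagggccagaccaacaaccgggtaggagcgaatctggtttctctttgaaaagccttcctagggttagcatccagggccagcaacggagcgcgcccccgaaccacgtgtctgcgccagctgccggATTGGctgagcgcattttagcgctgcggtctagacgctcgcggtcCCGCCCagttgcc

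The DNAJC3 window held 4 GC boxes and 1 CCAAT box, and the DZIP1 window 1 of each. Promoters were found in RefSeq for 44 of the 47 analysed members. For some, among them CARS2, MBNL2 and ADPRHL1, the RefSeq start lies far from the annotated start used here for positions. A GC box stood in 29 of these 44 windows (65.9%), against 42.3% of all 27305 human promoters of the same length, a set that includes non-coding genes. A CCAAT box stood in 15 of 44 (34.1%), against 33.0% of all promoters. The TATA box (TATAAA) was in 0 of 44 windows, against 11.1% of all promoters. The E2F site (TTTGGCGC) was likewise in 0 of 44 windows, against 0.553% of all promoters. The median GC content was 69.8% in the members' windows and 58.0% in all promoters. These letters were matched on both strands and describe the windows only.

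Across the phases, the RNA of the members climbed from P0 to P3 and again from P3 to P7, and then parted ways at P15. Their summed level was 3434, 3408, 3472 and 3444 CPM in the P0 libraries. It was 5027, 4910, 5023 and 4988 CPM at P3 and 6440, 6676, 6501 and 6518 CPM at P7. At P15 it was 2768, 2764, 2810 and 2784 CPM. The 4 groups did not overlap, and P15 was below P0.

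Changes are given below as log2 fold changes on the log2(CPM + 1) scale. The median change of the 47 members from P0 was 0.57 at P3 (interquartile range 0.35 to 0.69) and 0.93 at P7 (0.76 to 1.09). The comparisons of P3, P7 and P15 with P0 share the P0 libraries. Over all 13227 genes the median was -0.03 in both comparisons. At P3, all 4 libraries lay above all 4 P0 libraries for 39 members, and at P7 for 44 members. The rule chose members for these rises, and of all genes 27.7% and 23.8% did the same. For 39 members both phases stood above P0 without overlap (15.6% of all genes). The median spread of a member within a phase was 0.06 (SD of log2 values).

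**Figure D1:**
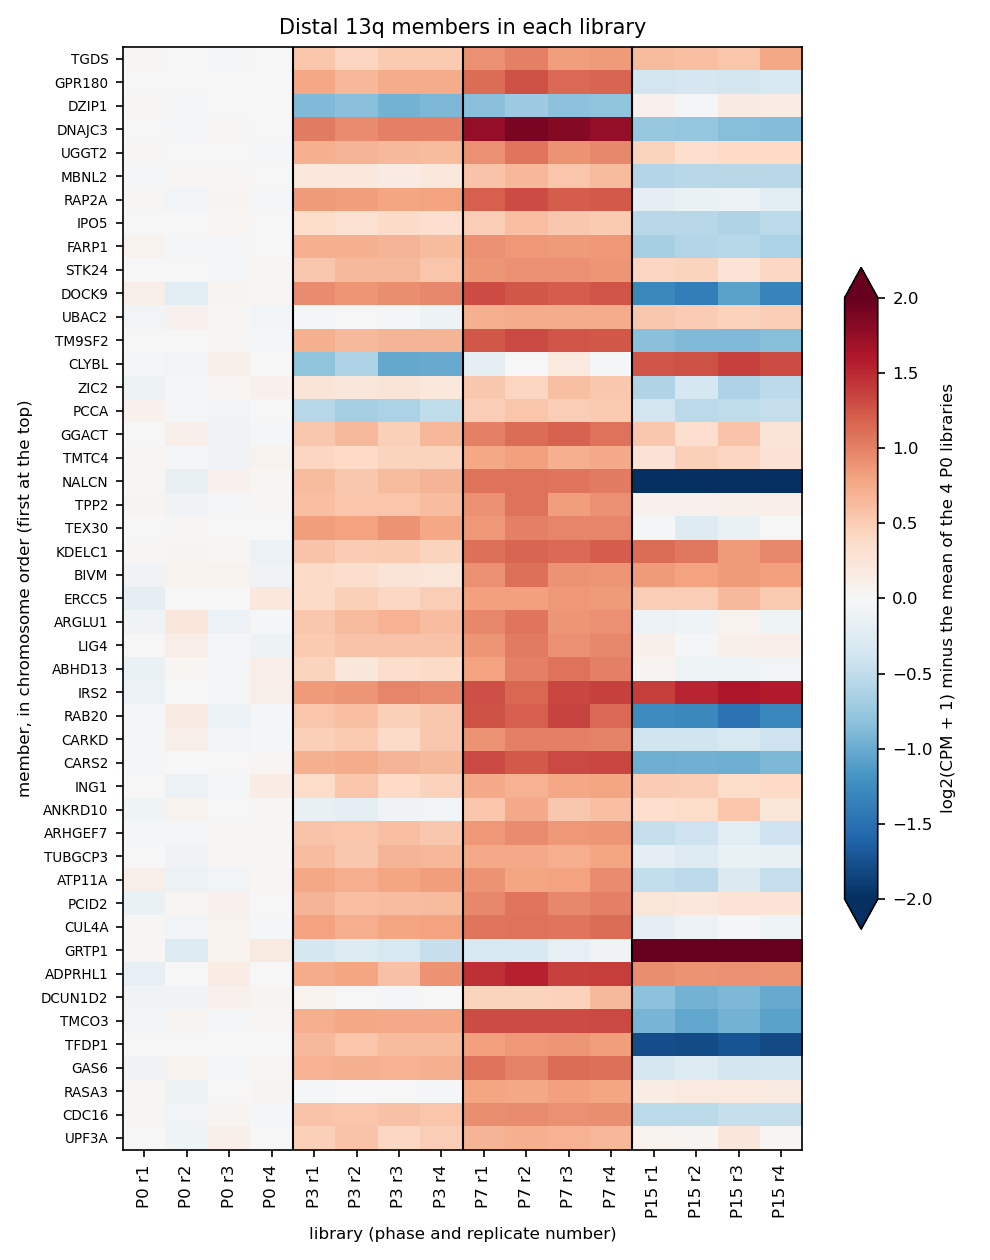
Heat map of the 47 analysed members (rows, in chromosome order) in each of the 16 libraries (columns, phase and replicate number). Colour is log2(CPM + 1) minus the mean of the 4 P0 libraries, red for higher and blue for lower, with values beyond 2 in the end colours. The P3 and P7 columns are red for most rows and deeper red at P7, whereas the P15 columns hold both colours, from GRTP1 at the red end to NALCN at the blue end.

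The list was not uniform at P3. In 8 members the P3 mean was below P0 or within 0.01 of it: DZIP1 (-0.89), CLYBL (-0.87), PCCA (-0.60), GRTP1 (-0.35), ANKRD10 (-0.12), UBAC2 (-0.05), RASA3 (-0.02) and DCUN1D2 (0.01). DZIP1, CLYBL and PCCA lay below P0 in every P3 library (32.4% of all genes did so), and without P0 replicate 2 there were 5 such members. At P7, 5 of the 8 stood above P0 without overlap, from 0.50 in DCUN1D2 to 0.79 in RASA3. CLYBL was back at its P0 level (-0.01), and DZIP1 (-0.80) and GRTP1 (-0.22) were still below it. DZIP1 was the only member whose P7 libraries all lay below P0 (28.8% of all genes), and without P0 replicate 2 there were 2. The largest rises were those of DNAJC3 (1.00), DOCK9 (0.93) and IRS2 (0.92) at P3, and of DNAJC3 (1.81), ADPRHL1 (1.43) and TMCO3 (1.31) at P7.

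The other 4 members fell under the level filter, and no change is given for them. The glypicans GPC5 and GPC6, heparan sulphate proteoglycans of the cell surface, had means of 0.572 and 0.021 CPM. The melanocyte enzyme DCT was at 0.029 CPM and the tight junction protein CLDN10 at 0.04 CPM. The member just above the filter was ADPRHL1, at 3.14 CPM.

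The rule does not name the step from P3 to P7, but it drew on the same P3 and P7 libraries, and members raised at P7 alone, such as RASA3, UBAC2 and ANKRD10, favour P7. The members' counts and median in this comparison are therefore a description. The limma values of single genes come from the fit over all genes. They take no account of how the members were chosen, so for members they too are a description. The question was whether the raised level had been reached by the early phase or went on rising to the intermediate phase. All 47 members were higher at P7 than at P3 on the mean. In limma, a linear model over all 13227 genes with adjusted p below 0.05, 44 of the 47 rose and 0 fell. Of all genes, 30.2% rose and 28.0% fell. The median member changed by 0.39 (interquartile range 0.30 to 0.60, range 0.07 to 1.11), the median gene by 0.01. The 4 P7 libraries lay above the 4 P3 libraries without overlap for 43 members, against 26.7% of all genes, and below them for 0, against 25.2%. The 21 analysed genes of the same stretch that are not on the list had a smaller median step, 0.18, with 12 rising and 2 falling.

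PCCA, the alpha subunit of the mitochondrial enzyme propionyl-CoA carboxylase, had the largest step. Its level was 24.8, 23.3, 23.8 and 25.9 CPM at P3 and 52.8, 55.5, 53.2 and 54.3 CPM at P7. The groups stood far apart, with a change of 1.11 (SE 0.047, limma adjusted p = 1.7e-15). Its P0 libraries, at 39.8, 36.8, 35.8 and 37.3 CPM, lay between them.

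CLYBL, a mitochondrial citramalyl-CoA lyase, rose by 0.86 (SE 0.089, limma adjusted p = 1.8e-08). It was at 3.03, 3.56, 2.46 and 2.48 CPM at P3 and at 5.15, 6.11, 7.06 and 5.87 CPM at P7, without overlap. DNAJC3 rose by 0.81 (SE 0.035, limma adjusted p = 3.1e-15), from 185, 173, 181 and 180 CPM at P3 to 306, 334, 321 and 306 CPM at P7. It had already stood above its P0 values of 89.5, 87.6, 90.8 and 89.5 CPM at P3.

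RASA3, a GTPase-activating protein for Ras and Rap, made its whole move after P3. It was at 134, 123, 132 and 136 CPM at P0 and at 130, 131, 132 and 128 CPM at P3, which overlap. At P7 it was at 227, 225, 231 and 228 CPM, above every earlier library (1.75-fold against P3, SE 0.032 on the log2 scale, limma adjusted p = 5.4e-16). UBAC2 (0.79), ANKRD10 (0.73) and DCUN1D2 (0.49) also rose from P3 to P7, each without overlap.

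The 3 members that did not pass were ATP11A, DZIP1 and GRTP1. ATP11A, a phospholipid flippase, changed by 0.07 (95% interval -0.03 to 0.18, limma adjusted p = 0.23) and was at 134, 130, 135 and 140 CPM at P3 and 146, 135, 136 and 150 CPM at P7, which overlap. DZIP1 changed by 0.10 (95% interval 0.01 to 0.18, limma adjusted p = 0.065). It passed without P3 replicate 2 (adjusted p = 0.04) or P15 replicate 2 (adjusted p = 0.046). GRTP1 changed by 0.14 (95% interval -0.06 to 0.33, limma adjusted p = 0.22). TEX30 had the smallest step that passed (0.13). Its libraries overlapped and its limma adjusted p was 0.029, and it no longer passed when any of 6 single P3 or P7 libraries was left out (limma adjusted p 0.051 to 0.09).

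**Figure D2:**
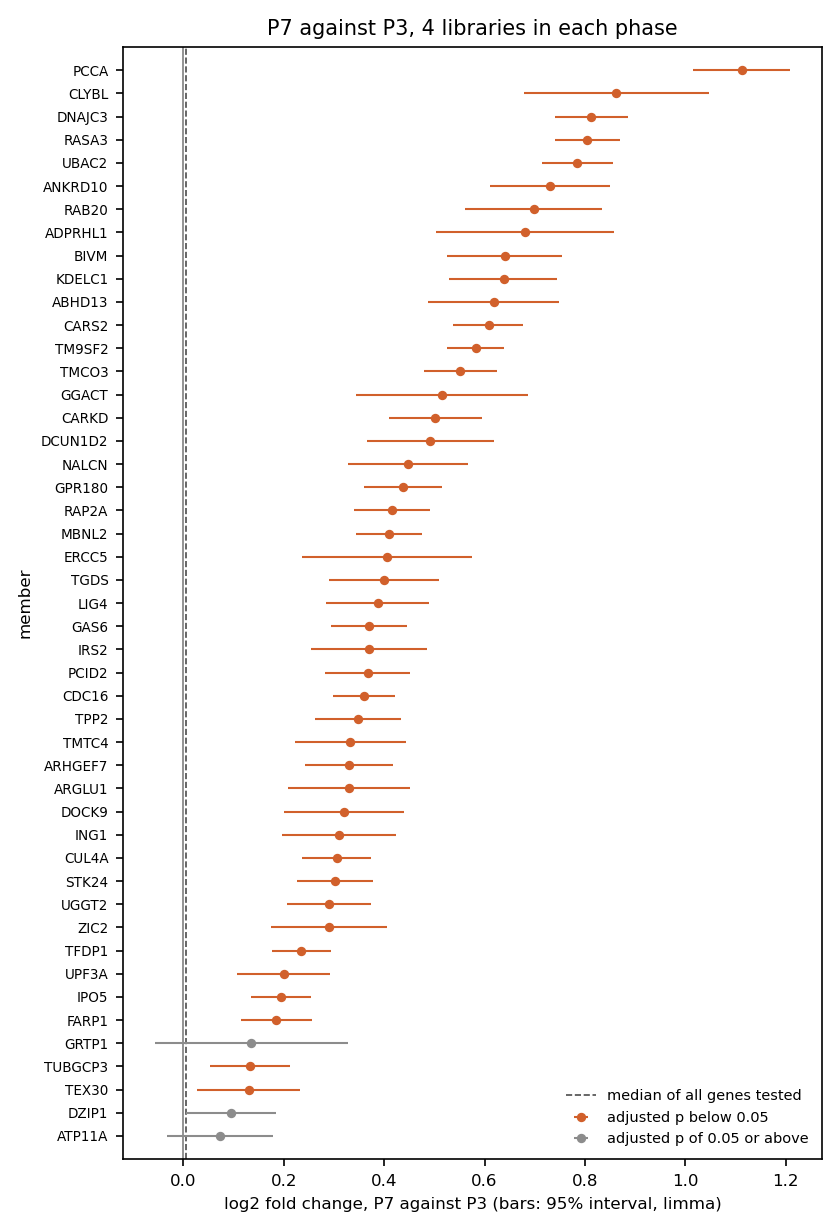
Log2 fold change of each of the 47 members from P3 to P7 (x axis, log2(CPM + 1) scale), sorted by size, with 95% intervals from limma over 4 libraries in each phase. Orange marks the 44 members that passed at an adjusted p below 0.05 and grey the 3 that did not, and the dashed line is the median of all genes at 0.01. Every point lies to the right of 0, from ATP11A at 0.07 to PCCA at 1.11. The choice of members drew on these same libraries, so the colours are a description.

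Members are described next by role. Each count of rises from P3 to P7 stands beside 44 of all 47 members and 30.2% of all genes. No group was tested against the rest of the list. The secretory and glycan-modifying members (7 of 9 analysed) had a median change of 0.67 at P3 and 1.15 at P7 from P0, and 7 of 7 rose from P3 to P7. TM9SF2, a multipass protein of the Golgi and endosomes, was at 233, 233, 236 and 227 CPM at P0, 379, 366, 374 and 371 CPM at P3, 548, 579, 559 and 548 CPM at P7, and 130, 125, 125 and 129 CPM at P15. Each phase stood clear of the others, and the step from P3 to P7 was 0.58 (SE 0.028, limma adjusted p = 1.4e-14). TMCO3, a membrane protein related to cation exchangers, followed the same course, with a step of 0.55 from P3 to P7 and means of 70.2 CPM at P0 and 34.7 CPM at P15. UGGT2, a glucosyltransferase that marks misfolded glycoproteins for another round of folding, rose by 0.29 from P3 to P7 and was still 0.40 above P0 at P15. KDELC1, a protein O-glucosyltransferase of the endoplasmic reticulum, was nearly as high at P15 (1.00 above P0) as at P7 (1.15 above P0).

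In the DNA repair and chromatin group, 4 of 4 members rose from P3 to P7, by 0.31 to 0.41. CUL4A, the scaffold of ubiquitin ligases that act at damaged DNA and on replication factors, was at 164, 155, 170 and 159 CPM at P0, 283, 270, 281 and 283 CPM at P3 and 342, 346, 342 and 351 CPM at P7. The 3 phases did not overlap. At P15 it was at 143, 149, 158 and 153 CPM, and the highest of these values was above the lowest P0 value. LIG4, the ligase of non-homologous end joining, was at 29.3, 32.1, 28.2 and 27.2 CPM at P0, 54.3, 61.2, 55.9 and 57.5 CPM at P7 and 31.2, 28.7, 31.4 and 31.9 CPM at P15, where it again overlapped P0. ING1, a reader of histone methylation, stood 0.76 above P0 at P7 and 0.45 above it at P15. ERCC5, the XPG endonuclease of nucleotide excision repair, rose by 0.41 from P3 to P7 but had a mean of only 3.76 CPM. Of its annotated exons, 3641 bp are shared with the BIVM-ERCC5 readthrough gene, so the ERCC5 values are uncertain.

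The cell division and proteolysis members rose from P3 to P7 in 5 of 5 cases, by 0.13 to 0.49. TFDP1, the DP1 partner with which E2F factors bind DNA, had the highest level of the 47 members per kilobase of exon (82.9 CPM per kb on the mean of all libraries). It was at 266, 270, 270 and 268 CPM at P0, 421, 392, 418 and 415 CPM at P3 and 473, 490, 494 and 480 CPM at P7. At P15 it was at 77.8, 77.2, 80.0 and 75.6 CPM, far under every other phase. CDC16, a subunit of the anaphase-promoting complex, was 0.93 above P0 at P7 and 0.51 below it at P15. TPP2, a large cytosolic peptidase, was 0.93 above P0 at P7 and 0.10 above it at P15. TUBGCP3, of the gamma-tubulin ring complex, rose by 0.13 (limma adjusted p = 0.0052) from P3 to P7.

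Among the regulators of small GTPases, 6 of 7 members rose from P3 to P7. DOCK9, an exchange factor for Cdc42, was at 131, 104, 124 and 124 CPM at P0, 233, 222, 230 and 235 CPM at P3, 297, 285, 279 and 287 CPM at P7 and 48.5, 45.5, 56.7 and 47.2 CPM at P15. The P15 libraries were all below P0, by 1.27. RAB20, a small GTPase of endosomes and phagosomes, rose by 0.70 from P3 to P7 and was 1.33 below P0 at P15 (5.77, 5.68, 4.82 and 5.59 CPM against 15.0, 17.1, 14.03 and 15.0 CPM). GRTP1, a protein with a TBC domain, ran the other way. It was at 1.79, 1.27, 1.89 and 2.10 CPM at P0, at or under 1.603 CPM at P3 and P7, and at 15.0, 13.9, 14.03 and 14.03 CPM at P15.

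The RNA processing and nuclear transport members rose from P3 to P7 in 5 of 5 cases, by 0.20 to 0.41. IPO5, an importin that carries ribosomal proteins and histones into the nucleus, was at 647, 647, 670 and 647 CPM at P0, 842, 802, 848 and 825 CPM at P3, 922, 988, 948 and 941 CPM at P7 and 445, 445, 430 and 448 CPM at P15. Its step from P3 to P7 was small beside that of the other members, at 0.20 (SE 0.029, limma adjusted p = 3.9e-06), but the libraries did not overlap. ARGLU1, a splicing regulator, rose by 0.33 and overlapped P0 at P15, as did UPF3A of nonsense-mediated decay, the last member on the chromosome, which rose by 0.20.

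The signalling members rose from P3 to P7 in 5 of 5 cases, by 0.30 to 0.73. GAS6, the ligand of the TAM receptor kinases, was at 66.6, 73.0, 68.1 and 72.0 CPM at P0, 114, 115, 114 and 115 CPM at P3, 150, 140, 152 and 151 CPM at P7 and 55.1, 58.3, 53.9 and 54.3 CPM at P15. Its highest phase was P7, as in 43 of 47 members (16.2% of all genes). Its lowest was P15, as in 25 of 47 (38.5% of all genes). STK24, a kinase of the Ste20 family, was 0.90 above P0 at P7 and still 0.39 above it at P15, although 7634 bp of its annotated exons overlap FARP1 on the other strand. IRS2, the adaptor of the insulin and IGF1 receptors, went on rising. It was at 21.8, 23.8, 23.3 and 25.7 CPM at P0, 43.3, 44.6, 47.5 and 46.2 CPM at P3, 59.1, 53.6, 60.8 and 62.6 CPM at P7 and 63.4, 70.01, 74.6 and 73.0 CPM at P15.

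The mitochondrial and small-molecule metabolism members (7 of 8 analysed) rose from P3 to P7 in 7 of 7 cases. CARS2, the mitochondrial cysteinyl-tRNA synthetase, was at 68.6, 69.5, 69.0 and 72.0 CPM at P0, 114, 117, 112 and 110 CPM at P3, 175, 164, 176 and 178 CPM at P7 and 35.0, 35.5, 35.0 and 36.8 CPM at P15. The phases did not overlap. CARKD, which repairs hydrated forms of NADH and NADPH, was 0.98 above P0 at P7 and 0.38 below it at P15. TGDS, the first analysed member on the chromosome, was 0.90 above P0 at P7 and 0.64 above it at P15.

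The remaining group of membrane, junction and developmental members (7 of 8 analysed) had 5 of 7 rises from P3 to P7. NALCN, the sodium leak channel, was at 29.7, 26.3, 31.0 and 29.9 CPM at P0, 45.9, 43.0, 45.9 and 47.5 CPM at P3, 63.0, 63.0, 62.6 and 61.2 CPM at P7 and 3.26, 4.06, 3.96 and 3.53 CPM at P15, the lowest P15 level relative to P0 of any member (-2.68). DZIP1 was at 60.0, 57.1, 59.1 and 58.7 CPM at P0 and at 62.1, 57.9, 65.7 and 65.3 CPM at P15, which overlap. Between them it was at 29.9 to 32.6 CPM at P3 and 32.6 to 35.3 CPM at P7. ADPRHL1, a catalytically inactive relative of ADP-ribose hydrolases, had the lowest level per kilobase of exon, 0.285 CPM per kb, and rose by 0.68 from P3 to P7.

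At P15 the members no longer moved as a block. The median change from P0 was -0.10, with an interquartile range of -0.54 to 0.39, against 0.04 for all genes. Without P15 replicate 2 the members' median was -0.051. The P15 libraries lay above P0 without overlap for 18 members (42.1% of all genes did so) and below it for 22 (37.6%). The highest were GRTP1 (2.48), IRS2 (1.53) and CLYBL (1.30), and the lowest NALCN (-2.68), TFDP1 (-1.78) and RAB20 (-1.33). Against P7, 41 members were lower without overlap (37.5% of all genes) and 4 were higher (43.4%), with a median of -1.01. P7 was the phase of the highest mean for 43 of 47 members and for 16.2% of all genes. The rule chose the group as not raised at P15, so its median there is a description and no check of that name. Even so, 18 members were above P0 at P15. GRTP1 and CLYBL were among them, which had not been above it at P3 or P7.

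Adjacent starts were compared next, since 5 pairs of members begin within 1000 bp of each other on opposite strands. KDELC1 and BIVM (79 bp apart) both rose by 0.64 from P3 to P7. LIG4 and ABHD13 (24 bp) rose by 0.39 and 0.62, and PCID2 and CUL4A (522 bp, with overlapping ends) by 0.37 and 0.31. CARS2 and ING1 (867 bp, with overlapping ends) rose by 0.61 and 0.31 and differed most at P15, at -0.95 and 0.45 against P0. DCUN1D2 and TMCO3, whose starts are 70 bp apart, were 0.01 and 0.76 above P0 at P3, yet took nearly equal steps from P3 to P7 (0.49 and 0.55). Whether reads were counted by strand was not stated, so reads from overlapping exons of such pairs cannot be assigned with certainty.

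The raised level was not limited to the stretch from 90 Mb. Of the 229 analysed genes of chromosome 13, 161 start before that position. In 10 Mb windows, the median change from P0 at P7 was -0.24 in 36 genes from 20 to 30 Mb and -0.30 in 27 genes from 30 to 40 Mb. It was 0.78 in 19 genes from 50 to 60 Mb, of which 17 passed the limma test as higher, and 0.74 in 20 genes from 70 to 80 Mb, of which 20 passed (27.9% of all genes). At P3 the medians of these windows were -0.19, -0.10, 0.42 and 0.51, with 16 of 19 and 18 of 20 higher in the latter (31.4% of all genes). The members' own medians were 0.57 at P3 and 0.93 at P7.

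The turn fell inside the window from 40 to 50 Mb. LRCH1 was 0.56 below P0 at P7, and the next analysed gene, ESD, was 0.81 above it. This position was chosen after the values were seen, so the counts on its sides carry no test. The 97 genes up to LRCH1 had medians of -0.21 at P3 and -0.31 at P7, and the 64 genes from ESD to 90 Mb had medians of 0.48 and 0.83. At P7, 58 of these 64 lay above P0 without overlap (23.8% of all genes). The tumour suppressor RB1 lies in that second group and was 0.64 above P0 at P3 and 0.97 above it at P7. On the other 22 chromosomes with analysed nuclear genes, the median ranged from -0.19 to 0.07 at P3 and from -0.28 to 0.07 at P7. The 16 analysed genes of the mitochondrial genome had medians of 0.25 at P3 and 0.55 at P7, as high as the 0.24 and 0.50 of chromosome 13 as a whole.

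**Figure D3:**
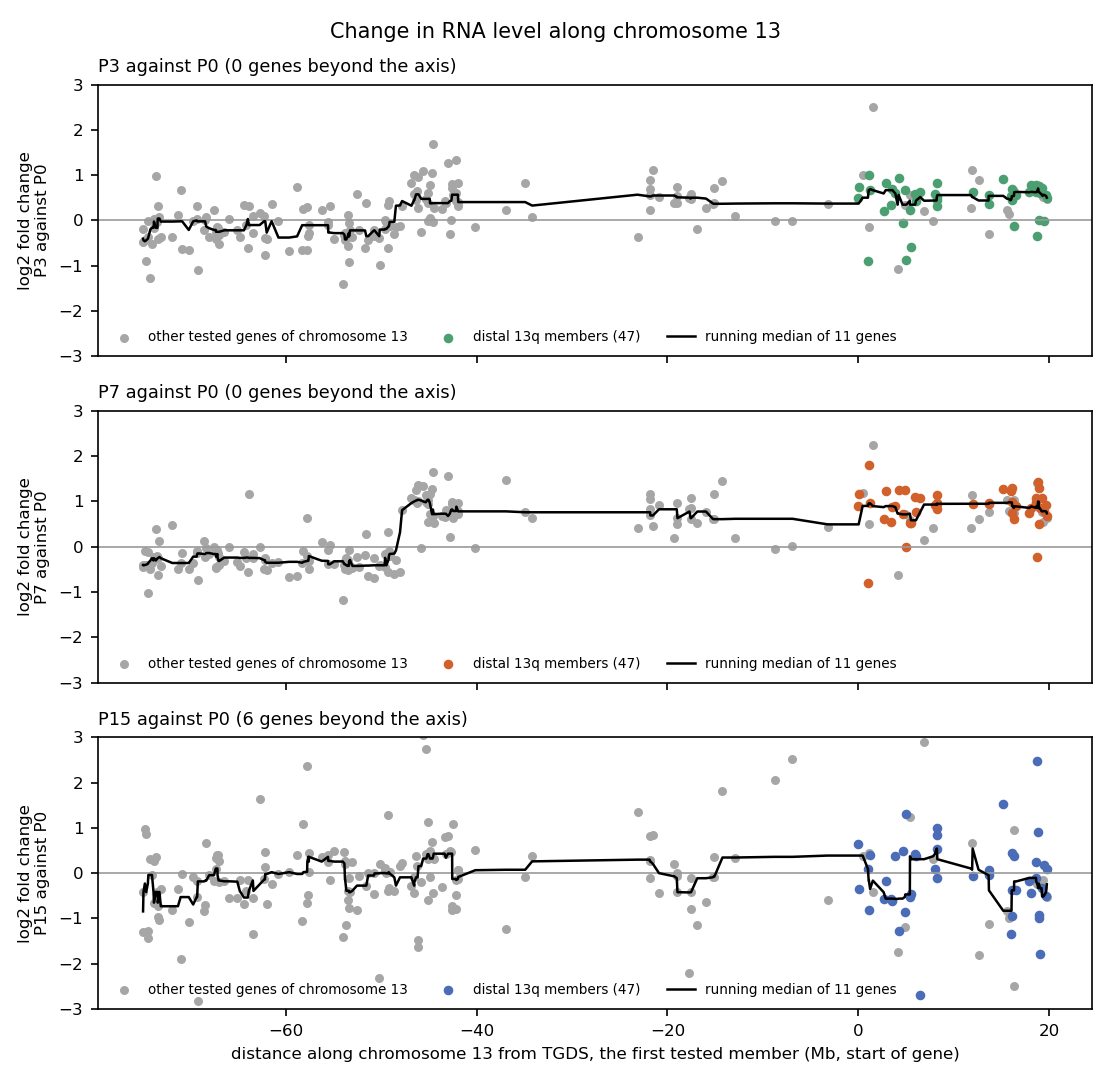
Log2 fold change against P0 of the 229 analysed genes of chromosome 13 at P3, P7 and P15 (panels), by distance in Mb from the start of TGDS, the first analysed member. Coloured points are the 47 members, grey points the other genes, and the line is the running median of 11 genes. At P7 the line steps from below 0 to above 0 more than 40 Mb before the members begin and stays up to the end of the chromosome. At P3 it steps up at the same place and stays up, but before that it was mostly below 0 and in places just above it. At P15 it crosses 0 repeatedly.

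Just before the members the genes were few. SPRY2, an inhibitor of receptor tyrosine kinase signalling, was 0.86 above P0 at P3 and 1.45 above it at P7. PTMAP5, SLITRK6 and SLITRK5 followed, at 0.19, -0.05 and 0.03 against P0 at P7. Both SLITRK genes had P0 means under 0.2 on the log2(CPM + 1) scale and were above 2 at P15. MIR17HG, the host gene of the miR-17-92 cluster, starts at 91347686 and was 0.37 above P0 at P3 and 0.44 above it at P7, with overlapping libraries in both.

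A further 21 analysed genes of the stretch are not on the list. Their median change from P0 was 0.46 at P3 and 0.72 at P7. Above P0 without overlap stood 14 of them at P3 and 18 at P7 (27.7% and 23.8% of all genes). With a pseudocount of 5 these medians were 0.239 and 0.397. Over genes above 1 CPM in all 16 libraries, 11 stood above P0 at P7 and 7 rose from P3 to P7. That filter leaves fewer than 21 of these genes, so the counts cannot be set directly beside 18 and 12. Under it their medians were 0.562 at P3 and 0.792 at P7. LAMP1, the main lysosomal membrane glycoprotein, behaved as the members did (0.72 at P3, 1.42 at P7, and 0.69 from P3 to P7 with limma adjusted p = 1.6e-15). COL4A1 and COL4A2, the basement membrane collagens that share a promoter, were only 0.23 and 0.15 above P0 at P3 and rose by 0.80 and 0.64 from P3 to P7. EFNB2 was raised at P3 (1.10) and moved by 0.04 afterwards (limma adjusted p = 0.37). The 2 that fell from P3 to P7 were HS6ST3, a heparan sulphate sulphotransferase that had stood 2.50 above P0 at P3, and FAM155A, a subunit of the NALCN channel complex. SLC15A1 was below P0 in both phases (-1.07 and -0.62).

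Members were finally set beside the genes encoded elsewhere whose products work with theirs. Lists of such partners held 93 names, of which 89 were analysed, 2 of them, RB1 and MZT1, on chromosome 13 before 90 Mb. The 87 partners on other chromosomes had medians of 0.05 at P3, -0.05 at P7, 0.12 at P15 and -0.05 from P3 to P7. Of all 89, 35 rose and 26 fell at P3 (31.4% and 37.3% of all genes), 29 rose and 35 fell at P7 (27.9% and 34.2%), and 46 rose and 35 fell at P15 (45.3% and 40.9%). From P3 to P7, 28 rose and 30 fell (30.2% and 28.0%). At P3 more partners rose than fell, whereas more of all genes fell than rose. At P7 falls outnumbered rises in both, and at P15 rises outnumbered falls in both. From P3 to P7 the numbers of rising and falling partners were close. With single libraries left out, 27 to 31 rose and 25 to 30 fell, so their order was not stable.

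**Figure D4:**
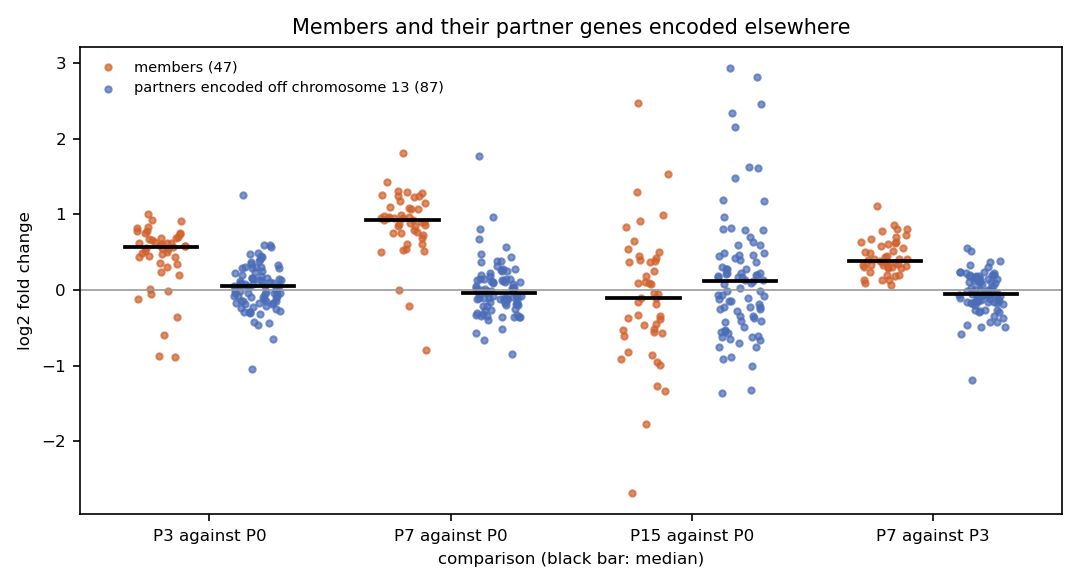
Log2 fold change of the 47 members (orange) and of the 87 analysed partners on other chromosomes (blue) in 4 comparisons, 1 point per gene, spread sideways at random, with the median as a black bar. The members' medians are 0.57 at P3, 0.93 at P7 and 0.39 from P3 to P7, where the partners' medians stay between -0.05 and 0.05.

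By complex, of 12 other genes of the anaphase-promoting complex and its activators, 2 rose and 4 fell at P7 (27.9% and 34.2% of all genes). Their median was -0.04, while CDC16 was 0.93 above P0. Of 12 partners of UPF3A in nonsense-mediated decay, 1 rose and 7 fell from P3 to P7 (30.2% and 28.0% of all genes). Among the partners of CUL4A, its paralogue CUL4B rose at P7 (0.39, limma adjusted p = 3.9e-11) and DDB1, the adaptor of the complex, fell (-0.22, limma adjusted p = 2.5e-07). Of 12 partners of ERCC5 in nucleotide excision repair, 3 rose and 5 fell at P7, and of 5 partners of LIG4 2 rose and 3 fell. PCCB, which forms the carboxylase together with PCCA, was 0.43 below P0 at P3 and 0.26 below it at P7 (both passing limma), and 1.62 above it at P15. PCCA was 0.60 below P0 at P3, 0.52 above it at P7 and 0.47 below it at P15.

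The glycoprotein quality control genes that work with UGGT2 rose more often than they fell. At P7, 8 of 10 rose from P0 and 0 fell (27.9% and 34.2% of all genes). From P3 to P7 again 8 rose and 0 fell (30.2% and 28.0%), with a median of 0.17. Against P0, 6 rose and 3 fell at P3 (31.4% and 37.3%), and 6 rose and 3 fell at P15 (45.3% and 40.9%). EDEM1, which directs misfolded glycoproteins to degradation, stood 0.97 above P0 at P7 (limma adjusted p = 9.7e-13), and the chaperones CALR and CANX stood 0.80 and 0.57 above it. For the TAM receptors and the second ligand, the receptor AXL rose at P3 (0.60) and fell from P3 to P7 (-0.28, limma adjusted p = 1.3e-08), and MERTK stood 2.82 above P0 at P15. Of the genes that work with IRS2, the insulin receptor INSR rose at P3 and again from P3 to P7, to 1.77 above P0, and stood 2.94 above P0 at P15. The receptor IGF1R was 0.35 above P0 at P3 and 0.85 below it at P7. The E2F partners of TFDP1 were divided, with 4 rises and 3 falls from P3 to P7, RB1 among the rises. Of the other glypicans, GPC1 was 0.67 above P0 at P7, and GPC2 and GPC4 were 2.34 and 2.46 above it at P15, while GPC5 and GPC6 of the stretch had means of 0.572 and 0.021 CPM. For the gamma-tubulin partners of TUBGCP3, 2 of 7 rose and 4 fell from P3 to P7, and MZT1, itself on chromosome 13, was 1.17 above P0 at P7.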

How the data were processed

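RNA from 16 libraries of T24 cells and the GRC1 line was sequenced by the study. Per the labels, the reads were aligned with STAR 2.6.1a to GRCh38. The paper's methods name featureCounts for counting. The deposited table holds log2 values of CPM plus a pseudocount of 1, to 2 decimals, without the quantile normalization and median centring that the methods describe. The steps between low values correspond to a total of 33.8 to 50.0 M counts per library. How strand and multiply mapped reads were treated is not given in the sources used here.

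CPM was obtained by reversing the log2. Genes with a mean CPM above 1 were fitted with limma 3.58.1 in R 4.3.3, with a coefficient for each phase, a trended variance prior and Benjamini-Hochberg adjustment over 13227 genes, and called at an adjusted p below 0.05 without a fold threshold. "Without overlap" means that all 4 libraries of a phase lay above, or below, all 4 of the other. On simulated data for P3 against P0 (13227 genes, 200 of them changed), 93 of 100 genes changed by 0.5 on the log2 scale were recovered. Of those changed by 1, 99 of 100 were recovered, and there were 9 false calls. The simulated libraries were independent, and far fewer genes changed than were called in the data. The number of false calls therefore need not hold for the data. Positions and exon lengths came from GENCODE (GRCh38) by gene name, which placed 12562 of the genes fitted. The table holds 27 gene names turned into dates and 2 duplicated names.

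The members and all lists were chosen with earlier results of these data known. Named genes were the 2 members of highest mean CPM in each role list, the 3 highest and 3 lowest in each comparison, the first and last member, the genes just before them, members below the filter, pairs within 1000 bp, other genes of the stretch and partners by list. Others named as examples were chosen after their values were seen. Alternatives changed the filter, pseudocount, scaling, block, variance prior, phases fitted and fold threshold, and left out each library.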

Additional observations from a re-analysis of the deposited data

Results flagged for a closer look

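Of 192 sets of 4 libraries (each member and the members' median in each phase), 15 held 1 library set apart from the other 3, measured as its gap to the nearest library over the whole range and judged by Dixon's limit for 4 samples. About 1 in 20, or 9.6, would be so by chance. The lone library was replicate 2 for BIVM at P7 (0.86), ARHGEF7 at P7 (0.86), GAS6 at P7 (0.83), CUL4A at P3 (0.86), TUBGCP3 at P0 (0.89) and TEX30 at P0 (1.0). It was replicate 3 for MBNL2 at P3 (0.83), IPO5 at P0 (1.0) and P15 (0.83), STK24 at P15 (0.88), ARGLU1 at P15 (0.84), UPF3A at P15 (0.84) and the median of the members at P3 (1.0). It was replicate 1 for GRTP1 at P15 (0.9) and replicate 4 for DCUN1D2 at P7 (0.9). The gaps were small beside the changes between phases: P7 replicate 2 of BIVM was at 5.06 against 4.85 to 4.88 in the others on the log2(CPM + 1) scale. The values are stored to 2 decimals, so the ratios of 1.0 rest on differences of 0.02 to 0.05.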

How the results depend on the processing

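The members' rise from P3 to P7 kept its direction under every alternative run; 44 passed with the replicate block of the sample descriptions and 44 with that of the title numbers, against 44 without it. Same-numbered libraries of 2 phases deviated from their phase means with correlations of -0.147 to 0.218. The main fit held no pairing, and whether the libraries were handled in numbered sets was not tested. With a log2 fold threshold of 0.5, 16 members, 5 other genes of the stretch and 2 rising and 2 falling partners passed from P3 to P7, and with a threshold of 1, 1, 1, 0 and 1. The partner counts with thresholds of 0.5 and 1 became 6 and 1 rising and 2 and 1 falling at P3, 7 and 2 rising and 4 and 0 falling at P7, and 20 and 10 rising and 17 and 3 falling at P15. Of the members without overlap, a change of at least 1 was reached by 1 above and 0 below P0 at P3, 15 and 0 at P7, 3 and 4 at P15 (8 and 14 at 0.5), and 2 above and 24 below P7 at P15; of the other genes of the stretch, by 2, 6 and 3 above P0 at P3, P7 and P15. Thresholds remove calls by construction. With a pseudocount of 5 the members' median was 0.856 at P7 against P0 and -0.907 at P15 against P7. The median of the other genes of the stretch against P0 was 0.631, 0.815 and -0.542 at P3, P7 and P15 with a pseudocount of 0.1, 0.239, 0.397 and -0.23 with one of 5, and 0.562, 0.792 and -0.232 over genes above 1 CPM in all 16 libraries. It was -0.222 at P15 after quantile normalization and 0.251 from P3 to P7 with a pseudocount of 0.1; under the stricter filter, which tests fewer genes, 7 of them rose from P3 to P7, and 11 and 4 stood above P0 at P7 and P15. PDIA3 at P15 against P0 turned to -0.054 after quantile normalization; the cause was not tested.

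With each library left out in turn, 43 to 45 members rose from P3 to P7 and 0 fell (median 0.375 to 0.398). Without overlap, 39 members were above P0 at P3 in every case and 3 to 5 below (median 0.564 to 0.577), 44 were above at P7 in every case and 1 to 2 below (0.902 to 0.94), and 18 to 19 were above at P15 and 22 to 23 below (-0.113 to -0.051). At P15 against P7, 41 to 42 were lower and 4 higher (-1.02 to -0.974). For the other genes of the stretch, 11 to 12 rose from P3 to P7 (0.177 to 0.217), and against P0 14 to 15 were above at P3 (0.443 to 0.486), 18 to 19 at P7 (0.642 to 0.768) and 7 to 8 at P15 (-0.507 to -0.358). Partners rising and falling numbered 32 to 37 and 23 to 28 at P3, 27 to 29 and 30 to 39 at P7, 43 to 48 and 34 to 36 at P15, and 27 to 31 and 25 to 30 from P3 to P7.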
